A study of Mus musculus with 16 samples.

Results

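Foxp1, Foxp2 and Foxp4 encode the forkhead transcription factors of the P subfamily that are expressed in brain, and they were followed here across the genotypes and treatments and mouse by mouse. They are 3 of the 55487 genes listed in the count matrix and 3 of the 18609 genes that passed the filter of at least 10 counts in at least 4 mice. The 3 genes were chosen by their symbols from earlier results of the same counts, namely the levels of Foxp2 and its paralogs over the 4 groups. Their group levels, differences and ratios are therefore given as a description without a test. The matrix holds 4 Foxp genes, and the remaining one, Foxp3, did not pass the filter.

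FOXP proteins bind DNA through a forkhead domain, pair with each other or with themselves through a leucine zipper, and act mostly as transcriptional repressors together with corepressor complexes. FOXP2, known for the speech disorder that follows its mutation in humans, is found in thalamus, in deep cortical neurons, in striatal projection neurons and in Purkinje cells of the cerebellum. FOXP1 is prominent in striatal projection neurons, in the cortical layers and in the hippocampus, FOXP4 is spread more widely, and FOXP3 is the defining factor of regulatory T cells.

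RNA was sequenced from bulk brain of 16 female mice on a C57BL/6J background, 4 in each group, all fed a diet with 1% cholesterol. CETPtg mice carried a transgene for the cholesteryl ester transfer protein (CETP), which mice lack, and APPtg/CETPtg mice carried it together with a mutant human APP transgene that the Thy1 promoter drives in neurons. Both genotypes therefore carried the CETP transgene, and the comparison of the genotypes concerned the added APP transgene. Within each genotype, mice received the CETP inhibitor evacetrapib at 30 mg per kg or its vehicle for 11 weeks. The ages at collection are not in the sample labels, and the labels name the tissue only as brain. The labels give no litters, cages or collection days, so p-values measure only the spread between these samples.

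Reads counted on genes summed to between 21391335 and 55453789 per mouse, with a median of 36043314.5 in CETPtg and 23689163 in APPtg/CETPtg mice. The counts of each of the 24 pairs of mice of the same group differed beyond sampling noise, with a chi-square of 4.59 to 20.6 per degree of freedom. Thy1, whose promoter drives the APP transgene, was higher in APPtg/CETPtg mice by 0.78 on the log2 scale (SE 0.15, adjusted p = 0.00178 with edgeR), with a lowest level of 865.3 CPM there, that is counts relative to the library size normalized by TMM, and a highest of 807.3 CPM in CETPtg mice. The libraries of the genotypes shared 0 columns of the index plate, so plate column and genotype cannot be told apart. Neuronal, astrocyte, oligodendrocyte, microglial and endothelial markers were all detected, whereas the T cell genes Cd3d, Cd3e and Cd3g reached at most 4 counts in any mouse.

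Foxp2 was lower in APPtg/CETPtg than in CETPtg mice, with either treatment. In vehicle-treated CETPtg mice S1 to S4 it stood at 34.2, 32.7, 29.4 and 33.2 CPM. In evacetrapib-treated CETPtg mice A to D it stood at 30.5, 30.3, 36.0 and 27.9 CPM. No CETPtg mouse was near the level of the other genotype. Vehicle-treated APPtg/CETPtg mice S5 to S8 had 15.6, 12.1, 16.8 and 15.4 CPM, and evacetrapib-treated APPtg/CETPtg mice E to H had 15.4, 14.7, 15.9 and 13.2 CPM. The lowest CETPtg mouse (27.9 CPM) thus lay above the highest APPtg/CETPtg mouse (16.8 CPM), while the treatments overlapped within each genotype. How many of all genes separate the genotypes in this way was not computed.

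The group means of Foxp2 were 32.4 ± 2.07 CPM and 31.2 ± 3.42 CPM (SD, n = 4 each) in vehicle- and evacetrapib-treated CETPtg mice. They were 15.0 ± 2.03 CPM and 14.8 ± 1.18 CPM in vehicle- and evacetrapib-treated APPtg/CETPtg mice. The raw counts behind them ranged from 943 to 1385 in CETPtg and from 268 to 857 in APPtg/CETPtg mice. The highest of the latter came from S8, the deepest library of all, whose level of 15.4 CPM was that of its genotype.

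Foxp1 was the most abundant of the 3 genes in CPM and was moderately lower in APPtg/CETPtg mice. It stood at 122, 118, 105 and 115 CPM in vehicle-treated CETPtg mice S1 to S4. In evacetrapib-treated CETPtg mice A to D it stood at 141, 124, 132 and 115 CPM. Mouse A was the highest of all 16 mice. Vehicle-treated APPtg/CETPtg mice S5 to S8 had 101, 83.4, 99.5 and 106 CPM, and evacetrapib-treated APPtg/CETPtg mice E to H had 98.6, 105, 87.9 and 107 CPM. The genotypes did not overlap among evacetrapib-treated mice and overlapped among vehicle-treated mice, where S8 (106 CPM) exceeded S3 (105 CPM) slightly.

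Foxp4 differed between the 4 groups by less than the spread of the mice. Its levels were 51.1, 49.5, 51.6 and 45.5 CPM in vehicle-treated CETPtg mice S1 to S4 and 43.5, 53.2, 54.6 and 49.3 CPM in evacetrapib-treated CETPtg mice A to D. Vehicle-treated APPtg/CETPtg mice S5 to S8 had 51.7, 49.2, 52.8 and 54.8 CPM, and evacetrapib-treated APPtg/CETPtg mice E to H had 48.1, 55.9, 54.3 and 53.2 CPM. All 4 groups overlapped, and mouse A, highest for Foxp1, was lowest for Foxp4.

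Foxp3, which marks regulatory T cells, had between 0 and 8 counts per mouse, at most 0.218 CPM. It was too sparse to be tested in any comparison, in the same samples in which CD3 genes were nearly absent. Of the 5 T cell markers, Cd4 was the one tested and was lower in APPtg/CETPtg mice (log2 fold change -0.36, SE 0.082). Summed over the 5 markers, levels ranged from 18.6 to 25.7 CPM in CETPtg and from 14.8 to 24.1 CPM in APPtg/CETPtg mice. Nearly all of this was Cd4, since Cd3d, Cd3e, Cd3g and Cd8a reached at most 6 counts. No change of T cells is read from it.

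**Figure D1:**
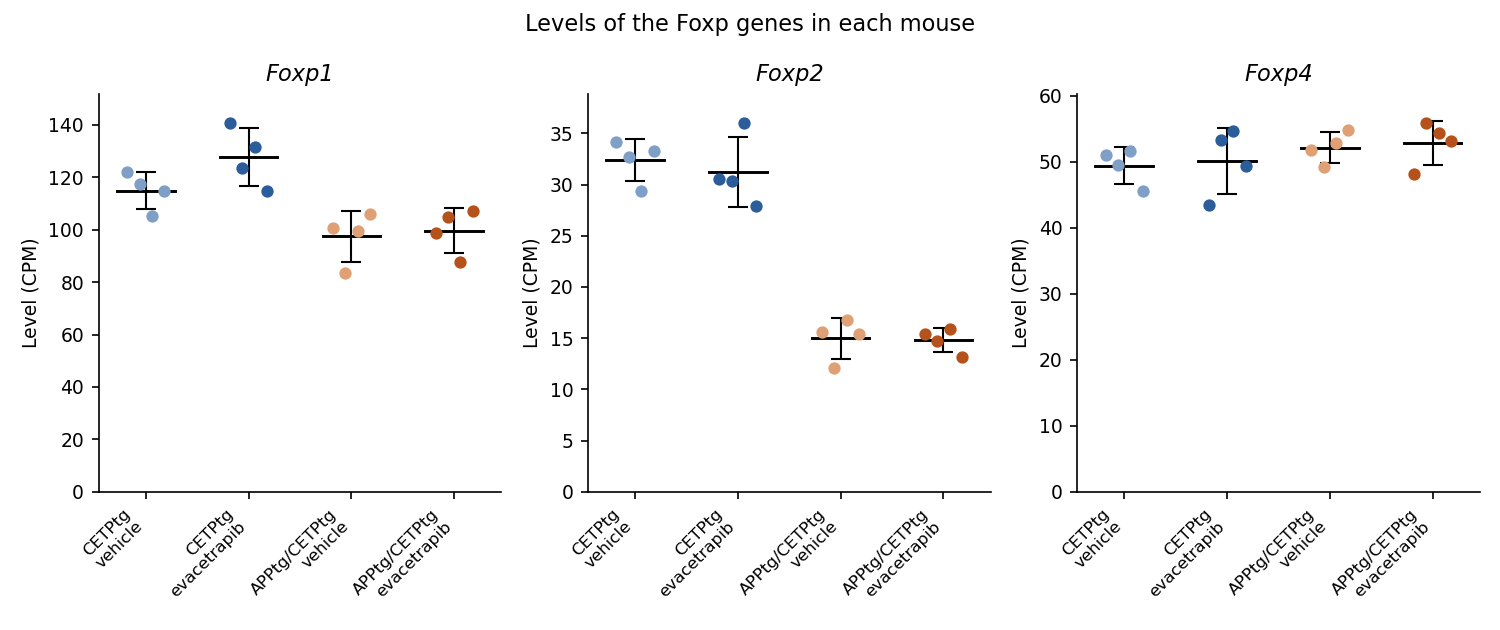
Levels of Foxp1, Foxp2 and Foxp4 in CPM (vertical axis, from 0) in the 4 groups. Each point is 1 mouse, the long bar is the group mean and the whiskers are 1 SD (n = 4). The Foxp2 points of APPtg/CETPtg mice (12.1 to 16.8 CPM) lie below those of all CETPtg mice (27.9 to 36.0 CPM), and the Foxp4 points overlap in all groups.

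Per kb of exon, counted over all annotated transcripts, the order differed from that in CPM. Over the 16 mice, Foxp4 stood at 10.4 ± 0.70 CPM per kb (SD), Foxp1 at 7.99 ± 1.10 and Foxp2 at 1.43 ± 0.55. The ranges of Foxp4 (8.82 to 11.3) and Foxp1 (6.06 to 10.2) overlapped, although Foxp4 exceeded Foxp1 in every mouse but A. Foxp2 (0.739 to 2.20) was below both in every mouse. The exon length used was the union over all annotated transcripts, 13.8 kb for Foxp1, 16.3 kb for Foxp2 and 4.93 kb for Foxp4. It includes exons of isoforms whether or not the brain uses them. The longest single transcripts are 7.177 kb for Foxp1, 6.76 kb for Foxp2 and 3.999 kb for Foxp4. With these lengths the mean of Foxp1 lies above that of Foxp4. The order of Foxp1 and Foxp4 therefore depends on the length used, and nothing is read from it.

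In the comparison of APPtg/CETPtg with CETPtg mice, the Foxp2 level had a log2 fold change of -1.09 (SE 0.064), a fold change of 0.469. Foxp1 had a log2 fold change of -0.30 (SE 0.055), a fold change of 0.814, and Foxp4 of 0.08 (SE 0.047). Foxp1 and Foxp2 were among the differentially expressed genes (DEGs, taken as genes with an adjusted p no higher than 0.05 that changed by 5% or more) and Foxp4 was not. In this comparison 3299 of the 18609 genes were DEGs, or 17.7% of those tested, with 1740 higher and 1559 lower in APPtg/CETPtg mice. DEGs lower in APPtg/CETPtg mice made up 8.38% of the genes tested. Because this contrast was used to choose the 3 genes, nothing is read from their count against that background.

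Among the 10263 genes with a mean of at least 10 CPM, Foxp2 had the lowest log2 fold change. Of all genes tested, 16 were at or below it, itself included, and the others had means of at most 4.16 CPM. The median log2 fold change over all genes was 0.0046. These ranks describe the gene that was selected and are no test.

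The genotype difference was of the same direction under either treatment. For Foxp2 the mean log2 CPM differed by -1.12 (SE 0.11) among vehicle-treated and by -1.07 (SE 0.097) among evacetrapib-treated mice. Foxp1 differed by -0.24 (SE 0.088) among vehicle-treated and by -0.36 (SE 0.090) among evacetrapib-treated mice. Foxp4 differed by 0.08 under both treatments (SE 0.052 and 0.088). Leaving out any single mouse kept the log2 fold change of Foxp2 between -1.12 and -1.06 and that of Foxp1 between -0.32 and -0.27. In bulk tissue, fewer cells that express a gene and less RNA of it per cell cannot be told apart.

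Evacetrapib was the treatment under study, and none of the 3 genes was a DEG in any comparison of treatments. Over all mice, evacetrapib against vehicle gave log2 fold changes of 0.09 (SE 0.055) for Foxp1, -0.04 (SE 0.063) for Foxp2 and 0.02 (SE 0.047) for Foxp4. There 2 genes were DEGs by edgeR, or 0.0107% of those tested, and 1472 had an unadjusted p below 0.05. The number of DEGs was 59 by DESeq2 (42 higher, 17 lower), 35 without a filter on low counts and 0 to 8 when 1 mouse was left out. None of the Foxp genes was among the DEGs in any of these fits, and nothing is read from that.

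Within genotypes the picture was similar. In CETPtg mice the log2 fold changes were 0.15 (SE 0.077) for Foxp1, -0.05 (SE 0.087) for Foxp2 and 0.02 (SE 0.067) for Foxp4. There were 0 DEGs (0%) by edgeR and 0 by DESeq2, and 1079 genes had an unadjusted p below 0.05. Evacetrapib- against vehicle-treated APPtg/CETPtg mice gave 0.03 (SE 0.078), -0.02 (SE 0.096) and 0.02 (SE 0.068) on the log2 scale for Foxp1, Foxp2 and Foxp4, and 8 genes were DEGs by edgeR, all lower with evacetrapib (0.043%), while 1677 had an unadjusted p below 0.05. DESeq2 called 73 there, 32 higher and 41 lower, the fit without a filter on low counts called 88, 35 higher and 53 lower, and edgeR without mouse G called 0. The difference between the genotypes in the effect of evacetrapib was -0.12 (SE 0.11) for Foxp1, 0.03 (SE 0.13) for Foxp2 and -0.00074 (SE 0.096) for Foxp4. By edgeR 0 genes (0%) passed in that contrast, by DESeq2 2 did, and 1271 had an unadjusted p below 0.05.

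Ratios between the genes within each mouse do not depend on library size, and they set Foxp2 against its paralogs directly. The log2 ratio of Foxp2 to Foxp1 ranged from -2.20 to -1.79 in CETPtg mice and from -3.02 to -2.46 in APPtg/CETPtg mice. The log2 ratio of Foxp2 to Foxp4 ranged from -0.82 to -0.45 in CETPtg and from -2.02 to -1.64 in APPtg/CETPtg mice. Neither ratio overlapped between the genotypes. Both contain Foxp2, which was chosen by its group levels, and the share of all genes that separate the genotypes was not computed. Nothing is read from the separation. On average the ratio of Foxp2 to Foxp1 was lower by a log2 difference of -0.79 (SE 0.078), a factor of 0.577, and that of Foxp2 to Foxp4 by -1.17 (SE 0.074), a factor of 0.443.

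The ratio of Foxp1 to Foxp4 differed less, by -0.38 (SE 0.079) on the log2 scale, a factor of 0.769. Its ranges, 1.03 to 1.69 in CETPtg and 0.69 to 1.03 in APPtg/CETPtg mice, met near 1.03, where mouse S3 (1.0304) and mouse E (1.0342) crossed. The closest agreement within a group was that of Foxp2 to Foxp1 in vehicle-treated CETPtg mice, with log2 ratios of -1.83, -1.84, -1.84 and -1.79. In evacetrapib-treated CETPtg mice A to D the same ratio was -2.20, -2.02, -1.87 and -2.04, below the vehicle group in every mouse. This gap was seen among several ratios and groups and was not tested. Neither gene was a DEG between these treatments, and nothing is read from the gap. In APPtg/CETPtg mice it was -2.69, -2.78, -2.56 and -2.78 with vehicle (S5 to S8) and -2.68, -2.83, -2.46 and -3.02 with evacetrapib (E to H), and the treatments overlapped.

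**Figure D2:**
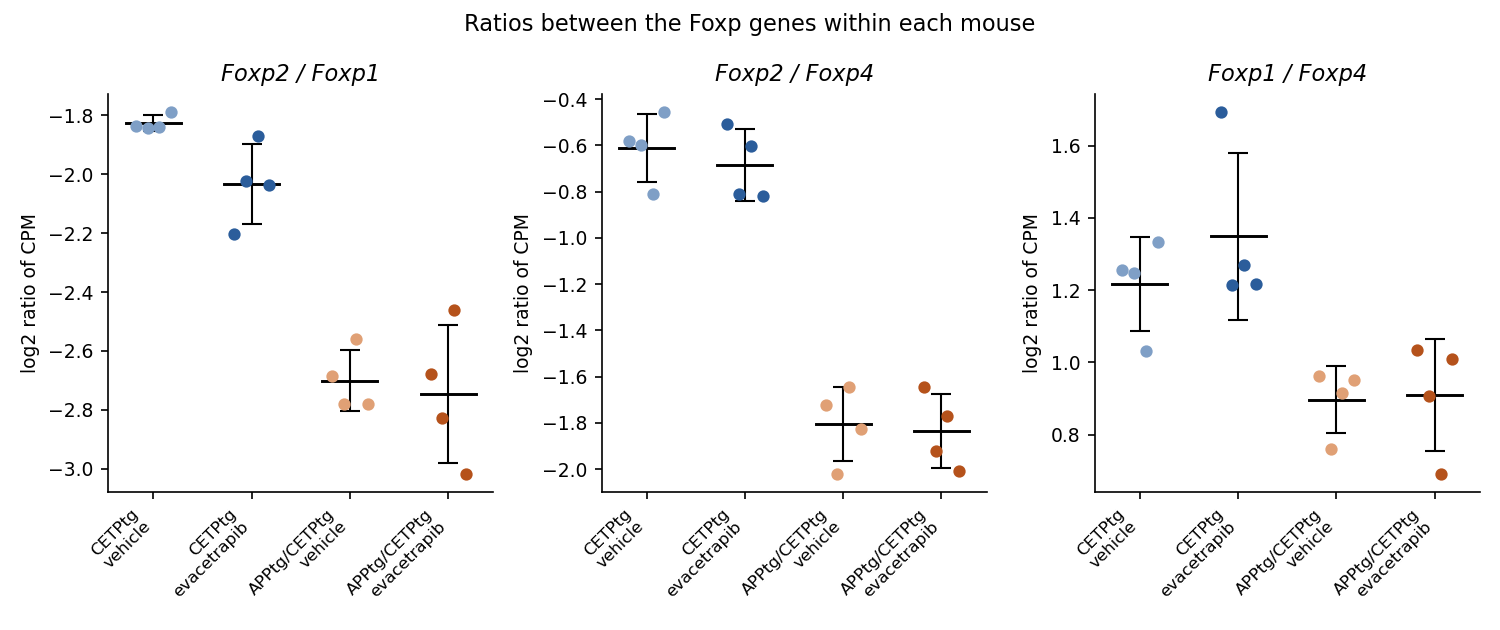
Log2 ratios of the CPM of Foxp2 to Foxp1, Foxp2 to Foxp4 and Foxp1 to Foxp4 (vertical axes, which do not start at 0 and differ between panels) in the 4 groups. Points are mice, long bars group means and whiskers 1 SD (n = 4). Both ratios with Foxp2 separate the genotypes, and the ratio of Foxp1 to Foxp4 overlaps slightly.

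Within a genotype, the levels of the 3 genes over the 8 mice are given as a description, since the mouse-by-mouse values were used to choose them. Foxp2 and Foxp1 had a Pearson r of 0.35 and a Spearman rho of 0.50 in CETPtg mice, and 0.31 and -0.095 in APPtg/CETPtg mice. Without the 2 mice farthest in Foxp2, r was 0.038 and -0.41. Foxp2 and Foxp4 had an r of 0.22 and a rho of 0.21 in CETPtg mice, and 0.31 and 0.12 in APPtg/CETPtg mice, and r was -0.13 and -0.16 without the 2 mice. The sign of r changed in 3 of these 4 cases, so that it rested on few mice. Foxp1 and Foxp4 had an r of -0.22 and a rho of 0.071 in CETPtg mice, and 0.44 and 0.55 in APPtg/CETPtg mice. Without the 2 mice farthest in Foxp1, their r was 0.88 and 0.74.

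The annotation places Foxp1 and Foxp2 far apart on chromosome 6 and Foxp4 on chromosome 17 (GRCm38, GENCODE M21). Foxp2 covers chr6:14901349-15441977 on the plus strand (541 kb, 20 transcripts), Foxp1 chr6:98925338-99522721 on the minus strand (597 kb, 31 transcripts), and Foxp4 chr17:47867133-47924645 on the minus strand (57.5 kb, 8 transcripts). The counts cover whole genes, so isoforms were not resolved. Annotated genes that overlap the 3 had at most 17 counts per mouse, the highest being Gm20696 within Foxp1 (2 to 17 counts).

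Within 3 Mb of Foxp2 22 genes were tested, of which 7 were lower and 1 was higher in APPtg/CETPtg mice. Of all genes tested, 8.38% were lower. The median log2 fold change of the 22 genes was -0.11. Their log2 fold changes ran from -0.41 to 0.26. The lowest was Mdfic, the closest tested gene, 279 kb downstream (log2 fold change -0.41, SE 0.13, adjusted p = 0.0321 with edgeR, mean 2.88 CPM), and the next upstream, 857 kb away, was the long non-coding RNA 1110019D14Rik (0.23, SE 0.14, not a DEG).

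The neighbour of Foxp2 that was higher was Ndufa4, a mitochondrial protein gene (0.11, SE 0.038). Among the others that were lower were Thsd7a (-0.27, SE 0.046), Tmem106b, a lysosomal membrane protein (-0.18, SE 0.035), and Cav2, a caveolin (-0.18, SE 0.060). Around Foxp1, 4 of 24 tested genes were lower and 0 higher, with a median of -0.04. Around Foxp4, 5 of 84 were lower and 15 higher, with a median of 0.07. Over all 18609 genes tested, 1740 were higher and 8.38% were lower. The log2 fold changes around Foxp4 ran from -0.62 to 2.32, the highest being the DEG Capn11 with a mean of 0.666 CPM.

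**Figure D3:**
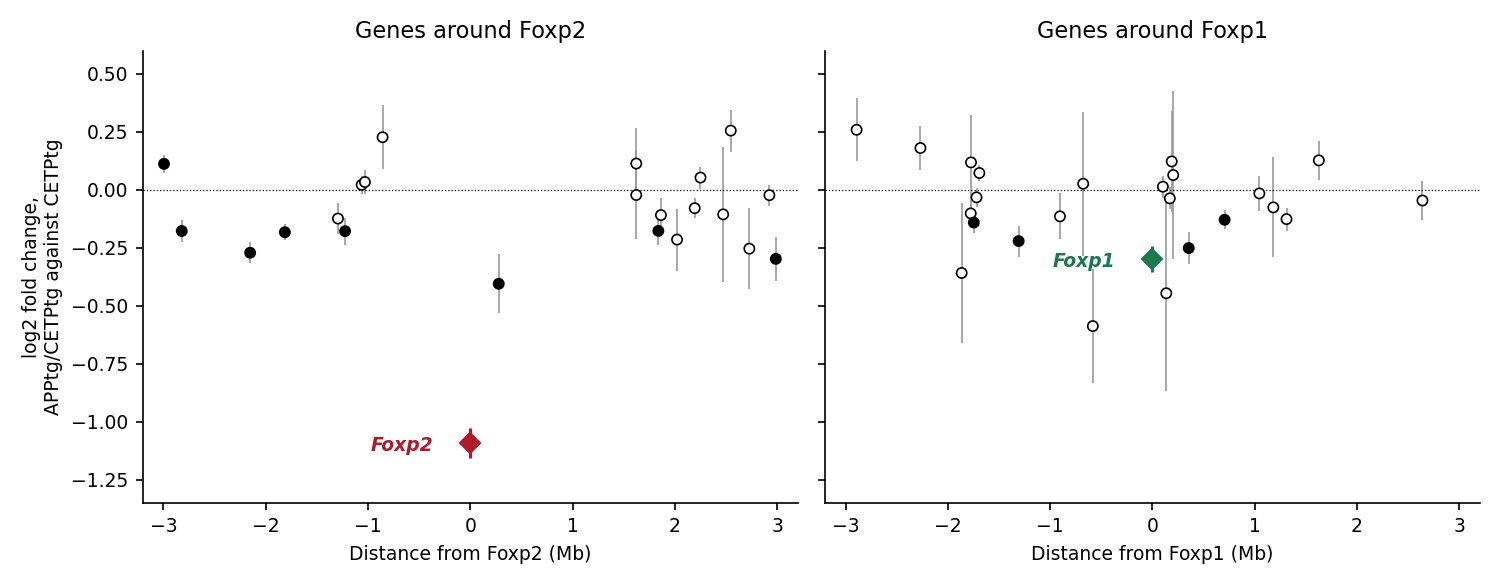
Log2 fold change of APPtg/CETPtg against CETPtg mice (vertical axis) for the tested genes within 3 Mb of Foxp2 (left) and Foxp1 (right), against their distance in Mb (horizontal axis, negative toward the start of the chromosome). Filled points are DEGs, open points are not, bars are standard errors, and the diamond is the Foxp gene itself. Foxp2 at -1.09 lies below its lowest neighbour at -0.41, and Foxp1 at -0.30 lies within the range of its neighbours.

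Long, GC-poor genes were lower on average in APPtg/CETPtg mice, and Foxp1 and Foxp2 belong to them. Across 18583 genes with a value, the genotype log2 fold change had a Spearman rho of -0.289 with gene length and -0.32 with exon length. Its rho was 0.382 with the GC content of the longest transcript of each gene. Genes are not independent, so these are descriptions. The GC content was 44.9% for Foxp1, 42.6% for Foxp2 and 63.4% for Foxp4.

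Of the 556 genes of 300 kb or more, 29.5% were lower DEGs and 0.54% higher, and the median log2 fold change was -0.10. Foxp2 was the lowest of these 556 genes, and 45 of them were at or below Foxp1. Of the 1486 genes with at least 10 kb of exon, 34.8% were lower, with a median of -0.11, and Foxp2 was again the lowest while 88 were at or below Foxp1. Of the 3497 genes with a GC content of 40% to 45%, the class of Foxp1 and Foxp2, 17% were lower, with a median of -0.07. In that class 4 genes were at or below Foxp2, itself included, and 295 at or below Foxp1. Among the 4130 genes with a GC content of 55% or more, the class of Foxp4, the median was 0.08. These ranks describe genes that were chosen by this contrast and are no test.

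When the trend of each mouse with GC content, exon length and gene length was removed, an alternative added after the data were seen, the log2 fold change was -0.92 for Foxp2, -0.15 for Foxp1 and 0.06 for Foxp4. Foxp2 was still a DEG and Foxp1 no longer was. Because this contrast was used to choose the genes, nothing is read from these calls. The number of DEGs in the comparison was then 1401, with 769 higher and 632 lower. Plate column and median depth moved with the genotype as well, and their part in the difference was not tested.

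**Figure D4:**
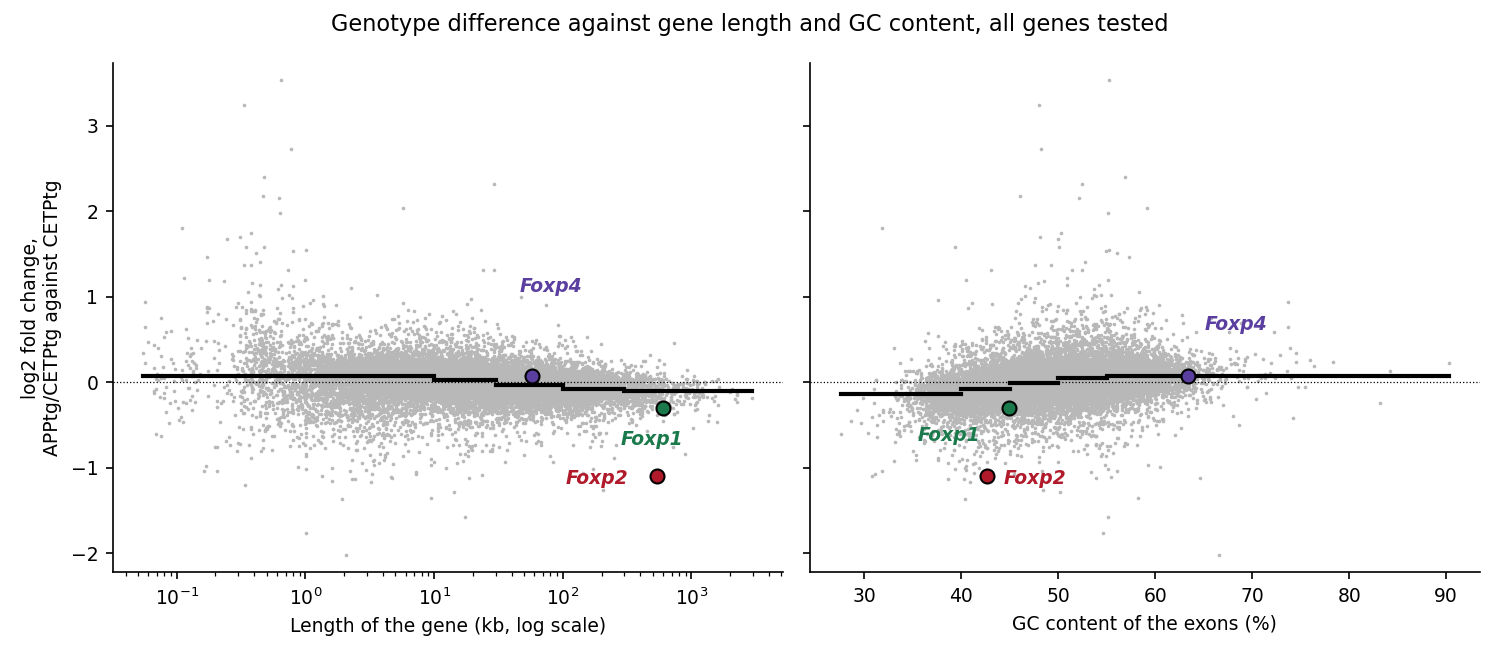
Log2 fold change of APPtg/CETPtg against CETPtg mice (vertical axis) for 18583 genes (grey points) against gene length (left, kb, log scale) and GC content (right, percent). GC content is that of the longest transcript, although the axis label names the exons. Black bars are medians of the genes in each range, and Foxp1, Foxp2 and Foxp4 are marked. Foxp4 lies on the median of its GC class, Foxp1 lies below that of its own class, and Foxp2 is the lowest of the genes of 300 kb or more.

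Of 24 other forkhead genes tested, 8 were lower in APPtg/CETPtg mice, 0 were higher and 16 did not pass, where 8.38% of all genes tested were lower. Their median log2 fold change was -0.11 against 0.0046 over all genes. The part of the trend with gene length and GC content in these values was not tested. Foxn3, a forkhead repressor, had the smallest adjusted p among them (-0.50, SE 0.047, adjusted p = 2.34e-06 with edgeR). The insulin-regulated Foxo1 fell by 0.19 on the log2 scale (SE 0.051), and its relative Foxo3 had a log2 fold change of -0.12 (SE 0.041) and was not a DEG. Summed over these genes, levels ranged from 690 to 728 CPM in CETPtg and from 634 to 669 CPM in APPtg/CETPtg mice.

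Partners of FOXP proteins were measured as a fixed list of 12 genes, with 3 lower and 0 higher in APPtg/CETPtg mice and a median log2 fold change of -0.09. The 3 were the NuRD corepressor subunits Gatad2b (-0.27, SE 0.036), Gatad2a (-0.21, SE 0.032) and Chd4 (-0.10, SE 0.033). Other NuRD genes were not DEGs, namely Hdac1 (0.07, SE 0.041), Hdac2 (-0.07, SE 0.034), Mta1 (0.02, SE 0.030) and Mta2 (0.06, SE 0.035). The corepressors Ctbp1 (0.06, SE 0.028) and Ctbp2 (-0.08, SE 0.10) did not pass, nor did the cortical transcription factor genes Tbr1 (-0.14, SE 0.085) and Sox5 (-0.12, SE 0.043).

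Among 10 genes described as neuronal targets of FOXP1 or FOXP2, 3 were lower, 0 were higher and the median was -0.07, where 8.38% of all genes were lower. Cntnap2, a neurexin-related adhesion gene known as a target that FOXP2 represses, had a log2 fold change of -0.14 (SE 0.038, adjusted p = 0.0157 with edgeR). Mef2c, a synaptic transcription factor, fell by 0.20 on the log2 scale (SE 0.062), and Vldlr, a reelin receptor, by 0.11 (SE 0.037). Srpx2 (0.07, SE 0.17) and the gene of its receptor, Plaur (0.38, SE 0.19), with mean levels of 1.28 and 0.815 CPM, were not DEGs, nor were Disc1, Met, Rarb, Lmo4 and Dcx.

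Of the 10 markers of the thalamus, a site of Foxp2, 3 were lower and 0 higher, where 8.38% of all genes tested were lower. Their median log2 fold change was -0.18. Tcf7l2, a transcription factor of thalamic neurons, fell by 0.60 (SE 0.17, adjusted p = 0.022 with edgeR), Rora by 0.37 (SE 0.050) and Plekhg1 by 0.23 (SE 0.068). The glutamate transporter gene Slc17a6, used by thalamic relay neurons, had a log2 fold change of -0.36 (SE 0.14) and Prkcd of -0.16 (SE 0.14), and neither was a DEG.

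The summed level of the thalamic markers ranged from 163 to 202 CPM in CETPtg mice (median 175) and from 132 to 169 CPM in APPtg/CETPtg mice (median 149), with an overlap, and all its markers were detected. Within genotypes the sum had an r with Foxp2 of -0.22 in CETPtg (exact permutation p = 0.619) and 0.14 in APPtg/CETPtg mice (exact permutation p = 0.758). The rho was -0.14 (exact permutation p = 0.752) and 0.31 (exact permutation p = 0.462), and r without the 2 mice farthest in Foxp2 was -0.33 and 0.78. In the family of 12 correlations computed, the adjusted p of each correlation with a marker list was 0.649 or higher by exact permutation. With 8 mice in each genotype, the correlations with marker lists cannot decide whether a Foxp gene followed a list. Nothing is read from them. The part of thalamic tissue in the Foxp2 difference was not tested.

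Markers of cortical layer 6, another site of Foxp2, lay on both sides of 0, where 17.7% of all genes tested were DEGs. Of the 8 tested, Fezf2 was higher (0.32, SE 0.082) and Tle4 lower (-0.15, SE 0.041), the median was 0.09, and the sum ranged from 319 to 343 CPM in CETPtg and from 320 to 399 CPM in APPtg/CETPtg mice. The sum had an r with Foxp2 of 0.064 (exact permutation p = 0.878) and a rho of 0.071 (exact permutation p = 0.882) in CETPtg mice. In APPtg/CETPtg mice r was -0.71 (exact permutation p = 0.115) and rho was -0.57 (exact permutation p = 0.151), and r without the 2 mice farthest in Foxp2 was -0.016 and -0.57.

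The 12 markers of striatal medium spiny neurons included 2 lower, among them Pde10a (-0.22, SE 0.054), and 0 higher, with a median of -0.13. The share lower among all genes tested was 8.38%. Their sums of 2298 to 2835 CPM and 2038 to 2822 CPM overlapped. The sum had an r with Foxp1 of 0.096 (exact permutation p = 0.818) and a rho of 0.14 (exact permutation p = 0.752) in CETPtg mice. In APPtg/CETPtg mice r was 0.64 (exact permutation p = 0.0769) and rho was 0.62 (exact permutation p = 0.115), and r without the 2 mice farthest in Foxp1 was 0.49 and 0.12. The dopamine receptor genes Drd1 (-0.09, SE 0.057) and Drd2 (-0.16, SE 0.084) were not DEGs.

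Of 7 upper-layer markers 3 were lower, Rorb (-0.43, SE 0.095), Mef2c and Cux1 (-0.13, SE 0.043), and the median was -0.06. None of the 5 genes of amygdala intercalated cells passed, with a median of 0.11. Of the 5 cerebellar genes tested, 1 was lower and the median was -0.13, and Pcp2, a defining Purkinje gene, and Gabra6, a granule cell gene, reached at most 60 and 4 counts and were not tested. Hippocampal markers included 2 lower of 7, Prox1 (-0.32, SE 0.090) and Fibcd1 (-0.21, SE 0.072), with a median of 0.12. Beside the counts of these lists, 8.38% of all genes tested were lower.

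Defining markers of the broad cell classes were measured as well, where 17.7% of all genes tested were DEGs. Of 5 neuronal markers 0 passed (median -0.02), of 5 oligodendrocyte markers 2 were lower, among them Mbp (-0.20, SE 0.065), and of 5 microglial markers 2 were higher, Tmem119 (0.30, SE 0.051) and Aif1 (0.38, SE 0.10). Astrocyte markers had 1 higher (Aldoc) and 1 lower (Gja1) of 5, and endothelial markers 0 of 5. Oligodendrocyte sums ranged from 3542 to 4281 CPM in CETPtg and from 2749 to 3861 CPM in APPtg/CETPtg mice. Summed markers of the olfactory bulb and hypothalamus varied widely between mice of one genotype, from 42.6 to 180 CPM and from 7.94 to 142 CPM in CETPtg mice, and none of the genes tested in these lists was a DEG. Their part in the result was not tested.

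Over the 19 lists, without the members, 135 genes were tested, with a median log2 fold change of -0.09 between the genotypes. Of these 33 were DEGs (24.4%), 4 higher and 29 lower. Over all genes tested, 17.7% were DEGs and 8.38% were lower. The part of the trend with gene length and GC content in these counts was not tested. In each comparison of treatments, and in the difference between the genotypes' effects, 0 of the 135 were DEGs by edgeR.

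**Figure D5:**
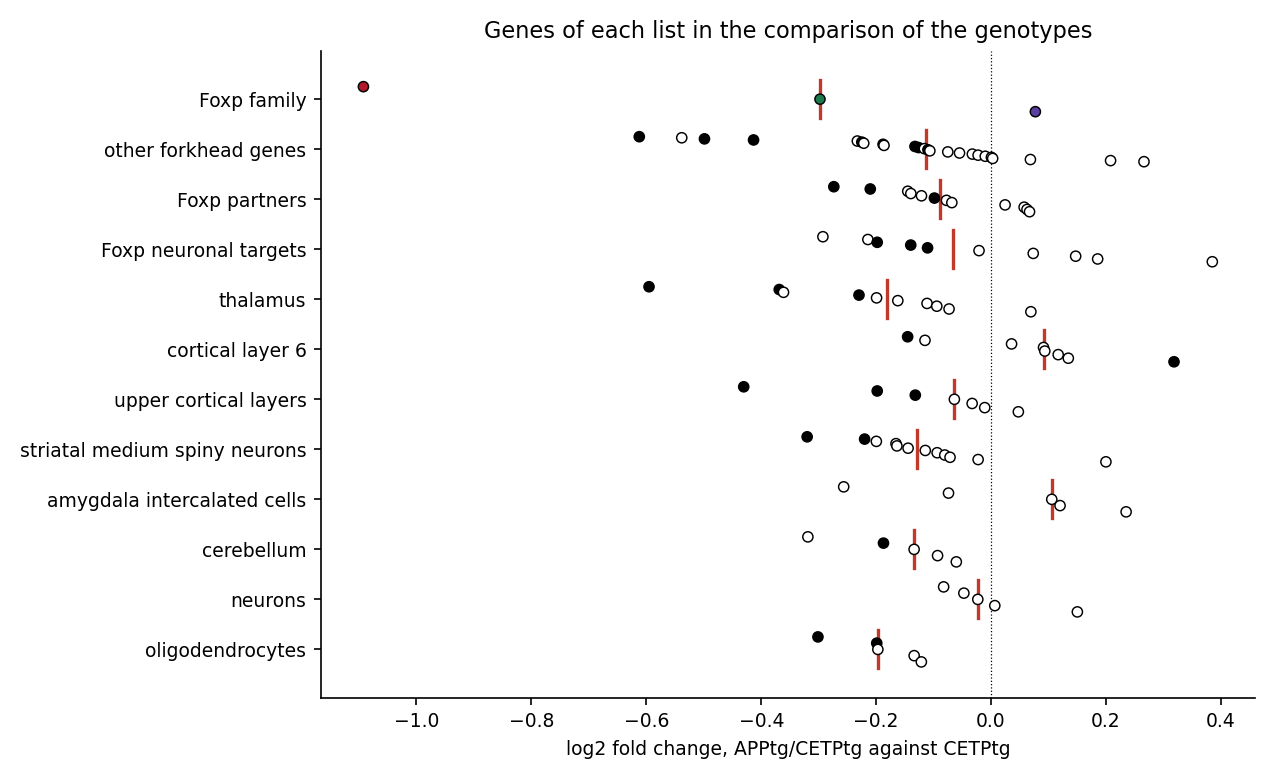
Log2 fold change of APPtg/CETPtg against CETPtg mice (horizontal axis) for the genes of 12 lists (rows). Filled points are DEGs, open points are not, and the red line is the median of the list. The Foxp family is coloured by gene, with Foxp2 at -1.09, Foxp1 at -0.30 and Foxp4 at 0.08, and the lowest of the other genes shown is Foxc2 at -0.61.

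The genes most like each Foxp gene were found by the Pearson r of log2 CPM over the 16 mice, among genes with a mean of at least 1 CPM. For Foxp2 the 8 highest, with r from 0.918 to 0.936, were Bmp2k, Camta1, Ank3, Erbb4, Slc12a2, Zfp26, Erbin and Ptp4a1. All 8 were lower in APPtg/CETPtg mice, with log2 fold changes between -0.18 (Camta1) and -0.62 (Ptp4a1), so that r contains the difference of the genotypes. After the group means were removed, r ranged from 0.059 (Ptp4a1) to 0.76 (Erbb4, a neuregulin receptor). Camta1, Ank3, which encodes the axonal scaffold ankyrin-G, and Erbb4 are long genes of 945, 629 and 1076 kb.

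For Foxp1 the 4 most alike were AI593442, Adam23, Gm44509 and Rorb (r 0.912 to 0.958), and r after removing the group means was 0.78 to 0.90. For Foxp4 they were Slc22a17, Pbx2, Tbkbp1 and Fam171a2 (r 0.844 to 0.873), which are short genes of 6.14 to 15.3 kb with log2 fold changes of 0.06 to 0.09 between the genotypes, and r after removing the group means was 0.84 to 0.91. These correlations are descriptions over mice whose libraries differed in depth. None of the genes most like Foxp2 was among those most like Foxp1 or Foxp4. Lists of 8 and 4 genes taken from so many seldom share a gene, so nothing is read from this.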

How the data were processed

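The authors enriched poly(A) RNA from bulk mouse brain, prepared directional libraries, trimmed reads with Trimmomatic 0.39, aligned them to mm10 with STAR 2.7.8a and counted them with HTSeq. The annotation and strand setting used for counting are not given in the sources used here. The values deposited are whole-number read counts of each gene without normalization, and 0 columns of a mouse were left unmapped.

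After TMM normalization, edgeR 4.0.16 (R 4.3.3) was used for two-sided quasi-likelihood tests of the 18609 genes that reached 10 counts in 4 or more mice, with Benjamini-Hochberg adjustment. DEGs needed an adjusted p no higher than 0.05 and a change of 5% or more. Treatments were compared with a genotype term and within genotypes, and genotypes with a treatment term. Log2 CPM used a prior count of 2. DESeq2 1.42.0 was an alternative. The fit was tested on simulated data. P-values measure the spread between these samples. The genes named are the members, Foxp3, genes of 18 fixed lists and the other forkhead genes, neighbours within 3 Mb and the genes most alike. Some neighbours and list genes were picked for printing after their values were seen. The members and lists were chosen with earlier results of these data known. Some genes of the lists are counted but not reported here by name.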

Additional observations from a re-analysis of the deposited data

Results flagged for a closer look

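Dixon's test for a mouse apart from the other 3 of its group was run on 36 sets of 4 values, and 3 were beyond its 95% critical value. Chance alone flags about 1 in 20 such sets. The log2 ratio of Foxp1 to Foxp4 was 1.69 in mouse A of the evacetrapib-treated CETPtg group, against 1.21 to 1.27 in the other 3 mice. The log2 ratio of Foxp2 to Foxp1 was -1.79 in mouse S4 of the vehicle-treated CETPtg group, against -1.84 to -1.83 in the others, a small gap in a group with very little spread. The summed level of the cortical layer 6 markers was 399 CPM in mouse S6 of the vehicle-treated APPtg/CETPtg group, against 323 to 332 CPM in the others. S6 also had the lowest Foxp2 level (12.1 CPM) and the lowest Foxp1 level (83.4 CPM) of all mice. Its summed neuronal markers were the highest of all mice (7019.5 CPM).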

How the results depend on the processing

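Of 309 recomputed fold changes of the 3 genes, 307 stayed within 1 SD of the mice. The exceptions came from removing the trend with GC content, exon length and gene length, which gave -0.92 for Foxp2, -0.15 for Foxp1 (no longer a DEG) and 1401 DEGs between the genotypes. Counts of DEGs for evacetrapib against vehicle over all mice, within CETPtg, within APPtg/CETPtg and for the difference between the effects were 35, 9, 88 and 29 without a filter on low counts. DESeq2's Wald test gave 59, 73 and 2 over all mice, within APPtg/CETPtg and for the difference. Leaving out 1 mouse gave 0 to 8 DEGs over all mice (8 without S8), 0 to 14 within APPtg/CETPtg (0 without G, 14 without S8), 0 within CETPtg, 0 to 1 for the difference (1 without S2) and 2503 to 3590 between the genotypes. The header of the matrix numbers the mice within groups, and a replicate block on these numbers, added after the data were seen, gave 5 DEGs within APPtg/CETPtg. Only 3 of 24 same-numbered pairs correlated above 0.1 (range -0.309 to 0.315). Without differently numbered pairs as a reference, this does not settle whether the numbers pair the mice. The causes of these changes were not tested. Depth was lower in APPtg/CETPtg mice, with 268 to 857 counts for Foxp2, and Foxp3 could not be tested at this depth.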
